A study of Homo sapiens with 8 samples.

Results

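The transcriptomes of CYP3A4-overexpressing HepG2 cells exposed to compound 5 or to compound 4 were compared directly, gene by gene, in 4 of the 8 samples of the series. All samples were chosen by their treatment labels, and 13404 of the 60230 genes in the table had enough counts to be tested. HepG2 cells come from a human liver cancer and are a long-used cell line, and the cells of this study carry a CYP3A4 transgene kept with blasticidin, an antibiotic that all groups received. Cells were exposed for 24 h to compound 4 (labelled metylcresol, 2 samples) or compound 5 (labelled tetrabut, 2 samples), each at its own IC50 from a growth assay in the same cells. Control cells received 0.2% DMSO (2 samples), and apart from their part in the fit they serve only to show from which side a difference came.

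Both compounds are hindered bisphenols used as antioxidants in plastics. In compound 4 a methylene group joins rings that each bear a tert-butyl and a methyl group beside the hydroxyl. In compound 5 the bridge carries a further methyl group and each ring bears a pair of tert-butyl groups. The molar concentrations were not shown to be equal, so the compound and its concentration cannot be told apart in any difference given below. Only this pair of compounds was compared. The sample labels give day 1 for replicate 1 and day 2 for replicate 2 of every group. Nothing in the labels states that replicates came from separate cultures, so the p-values measure only the spread between these samples.

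The summed counts of the 6 samples lay between 9955207 and 13308975. At these depths, 3 counts corresponded to between 0.234 and 0.295 CPM (counts relative to a common library total, after scaling of each library by TMM, trimmed mean of M values), which is the smallest level that counting error allows to be seen. All 10 hepatocyte markers examined were expressed in every sample, among them ALB, the gene of albumin, at 12500 to 15000 CPM before TMM scaling in the compound samples. Of 6 leukocyte markers, PTPRC and CD3E were at 0 in all 4 compound samples and LYZ and CD68 were expressed, at 1770 to 2430 and 34.1 to 57.4 CPM on the same scale. Of 5 fibroblast and stellate markers, COL1A2, DCN, and LUM were at 0, and PDGFRB was at 8.60 and 6.29 CPM with compound 4 and 4.39 and 2.55 with compound 5. Of 4 endothelial markers, KDR was at 0, and PECAM1, VWF, and CDH5 reached at most 1.03, 0.855, and 0.258 CPM in the compound samples. Of 5 bile duct markers, CFTR was at 0 and KRT7 at most at 0.086 CPM, while KRT19, EPCAM, and SOX9 were expressed. Of 4 erythroid markers, HBA1 was at 4.83 to 6.29 CPM and the other 3 were under 1 CPM. The summed leukocyte markers came to 2148 and 2489 CPM with compound 4 and 1978 and 1805 with compound 5, and their part in any result was not tested. CYP3A4, the gene of the transgene product (chromosome 7, 99756960 to 99784265 on GRCh38), was present in every group, with 198 and 206 CPM under DMSO, 287 and 216 under compound 4, and 371 and 421 under compound 5. Both compound 5 samples lay above both compound 4 samples, with a log2 difference of 0.66 (SE 0.13, edgeR adjusted p = 0.0148). The counts do not separate the transgene from the chromosomal gene.

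The library of compound 4 replicate 2 had the widest trend with transcript length, though other libraries had one too. When genes were cut into 5 equal groups by transcript length, in the group with the shortest transcripts (longest annotated transcript of 153 to 1953 bases), its median deviation from the mean of all samples was 0.19 on the log2 scale, and in the group with the longest (5673 bases or more) it was -0.21. The corresponding values were 0.01 and 0.04 in compound 4 replicate 1, -0.14 and 0.14 in compound 5 replicate 1, and -0.10 and 0.06 in compound 5 replicate 2. In the DMSO libraries they were 0.10 and -0.09 in replicate 1 and 0.001 and 0.03 in replicate 2. The difference between the compounds followed the same axis: its median rose from -0.22 in the shortest group through -0.13, -0.02, and 0.07 to 0.19 in the longest, and the share of genes called higher with compound 5 rose from 1.69% to 12.8%. APOB, the gene of the largest apolipoprotein, shows the gap between the replicates, with 6521 and 2889 CPM in the 2 compound 4 samples. Most gene lists below are therefore given also with a correction for transcript length and GC content and without compound 4 replicate 2. The part of this library trend in any single difference was not tested.

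**Figure D1:**
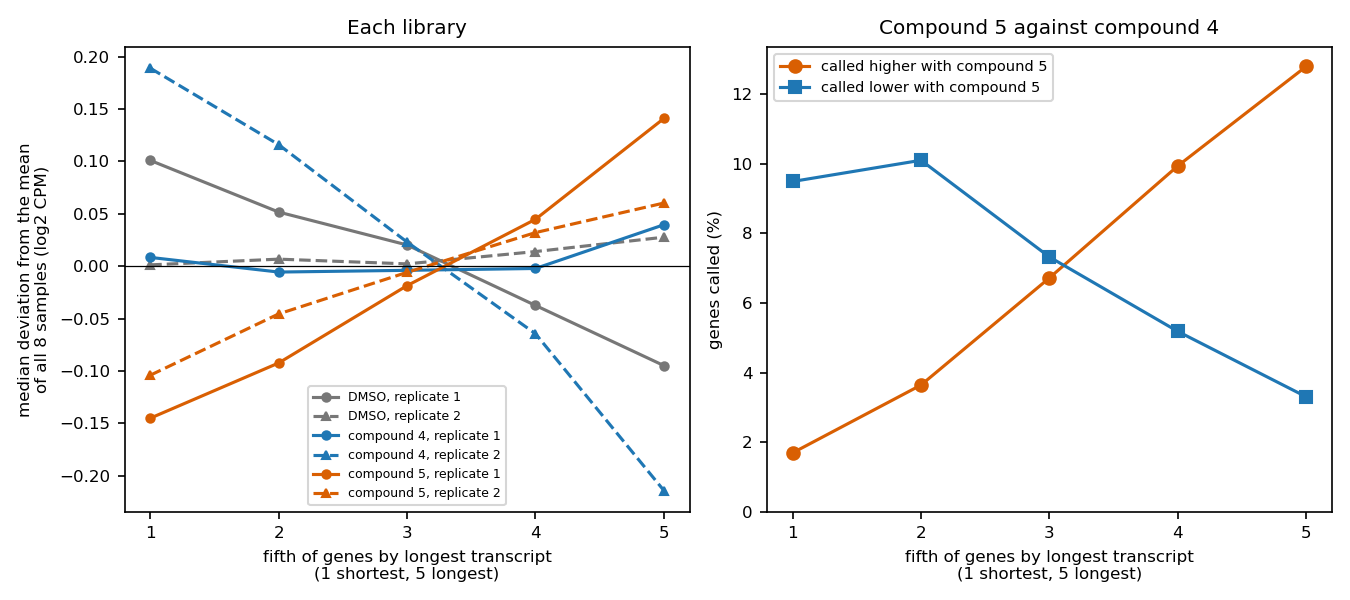
Left, the median deviation of each library (log2 CPM, against the mean of all 8 samples) over 5 equal groups of genes ordered by their longest transcript, for DMSO and compounds 4 and 5. Right, the percentage of genes called higher or lower with compound 5 in the same groups. Compound 4 replicate 2 falls from 0.19 to -0.21, and genes called higher with compound 5 rise from 1.69% to 12.8%.

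Compound 5 differed from compound 4 at 1869 of the 13404 genes tested (13.9%, edgeR adjusted p under 0.05), with 926 higher (6.91%) and 943 lower (7.04%) under compound 5. An unadjusted p under 0.05 was found for 4285 genes. All called genes had the same sign on both days and did not overlap between the compounds, as did 28.3% of all genes upward and 31.7% downward. Most differences were of moderate size: 82 genes called higher and 207 called lower exceeded 1 on the log2 scale, and the median absolute difference was 0.58 in the former direction and 0.68 in the latter. The split by direction changed with the scaling: the share of called genes that were higher was 49.5% with TMM, 56.8% with RLE, 33.0% with upper-quartile, and 31.3% with library-size scaling, and it was 67.3% with DESeq2, which changes the test and the scaling at once. With compound 4 replicate 2 left out 579 genes were called, without replicate 1 2709, and without replicate 1 or 2 of compound 5 111 and 167. Leaving out DMSO replicate 1 or 2 gave 1164 and 1207. The length and GC correction gave 2074 called genes, 1180 of them higher. A fit of the 4 compound samples alone called 897.

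Against the DMSO samples, which both compounds share, genes called higher with compound 5 mostly stood above control. The DMSO mean was below both compounds for 445 of the 926 genes, between them for 435, and above both for 46. Of the 943 genes called lower, DMSO was above both compounds for 321, between them for 523, and below both for 99. By biotype, 98.2% of the genes called higher and 89.5% of those called lower were protein coding, against 88.0% of all genes tested. Genes annotated as antisense made up 42 of the genes called lower and 0 of those called higher, out of 386 tested. The libraries were strand specific, but how the quantification used strand is not given in the sources used here, so antisense genes are uncertain.

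The largest differences upward were those of genes close to absent under compound 4. KNG1, which encodes kininogen, the precursor of bradykinin (chromosome 3, 186717276 to 186744410), had 0.427 and 0.312 CPM with compound 4 and 5.32 and 7.30 with compound 5, a log2 difference of 4.07 (SE 0.45, adjusted p = 0.00304). CXCL8, the gene of the neutrophil attractant interleukin 8 (chromosome 4, 73740506 to 73743716), went from 1.20 and 0.780 to 9.62 and 15.3 CPM (log2 3.66, SE 0.37, adjusted p = 0.00211). DMSO samples had less than 0.6 CPM of either gene. SLC51A, one chain of the bile salt exporter OST (chromosome 3, 196211487 to 196243178), had the smallest adjusted p of all genes, 0.000803, with 8.29 and 10.4 CPM under compound 4, 33.3 and 41.3 under compound 5, and 9.65 and 9.12 under DMSO (log2 2.00, SE 0.16). Its partner chain SLC51B was at 33.1 and 41.0 CPM with compound 4 and 80.3 and 90.4 with compound 5 (log2 1.20, SE 0.15, adjusted p = 0.00455).

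KLHDC7B, C5AR1 (receptor of complement C5a), COL2A1 (type II collagen), and TSC22D3 (the glucocorticoid-induced leucine zipper protein) followed with log2 differences of 2.91, 2.63, 2.56, and 2.09. The calls of all 4 were lost without compound 4 replicate 2, at adjusted p-values of 0.0799, 0.117, 0.0553, and 0.174. ENSG00000262633, RSC1A1, and CRYZL2P-SEC16B also ranked among the 10 largest, but 93.9%, 100%, and 60.4% of their 31-base words occur in other genes, so their counts are uncertain. The first 2 of these were at 0 in both compound 4 samples and at 7.06 and 2.28 CPM and at 3.94 and 1.10 CPM with compound 5.

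CYP1A1 was among the genes that were lower with compound 5. This enzyme, which oxidizes aromatic hydrocarbons and is the standard target of the aryl hydrocarbon receptor (chromosome 15, 74719542 to 74725610), had 69.2 and 62.1 CPM under compound 4, 11.5 and 7.46 under compound 5, and 4.13 and 3.21 under DMSO. The log2 difference was -2.80 (SE 0.26, adjusted p = 0.00142), and both compounds lay above control. The matrix metalloproteinases MMP7 (-2.83) and MMP11 (-2.06), the noncoding LINC02600 (-2.76) and SRP14-DT (-2.06), and HFE, the haemochromatosis gene (-2.05), were all under 3 CPM in every compound sample. Without compound 4 replicate 2, MMP7, SRP14-DT, and HFE lost their calls, at adjusted p-values of 0.0668, 0.0872, and 0.0838. HFE was also lost without replicate 1 (0.0809). ITGB1P1, ENSG00000260772, and C1QTNF3-AMACR share between 96.7% and 100% of their 31-base words with other genes and are uncertain. ENSG00000278834, an antisense gene, had -2.05 and missed the threshold with the replicate number as a block (adjusted p = 0.055) and without compound 4 replicate 2 (0.125).

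**Figure D2:**
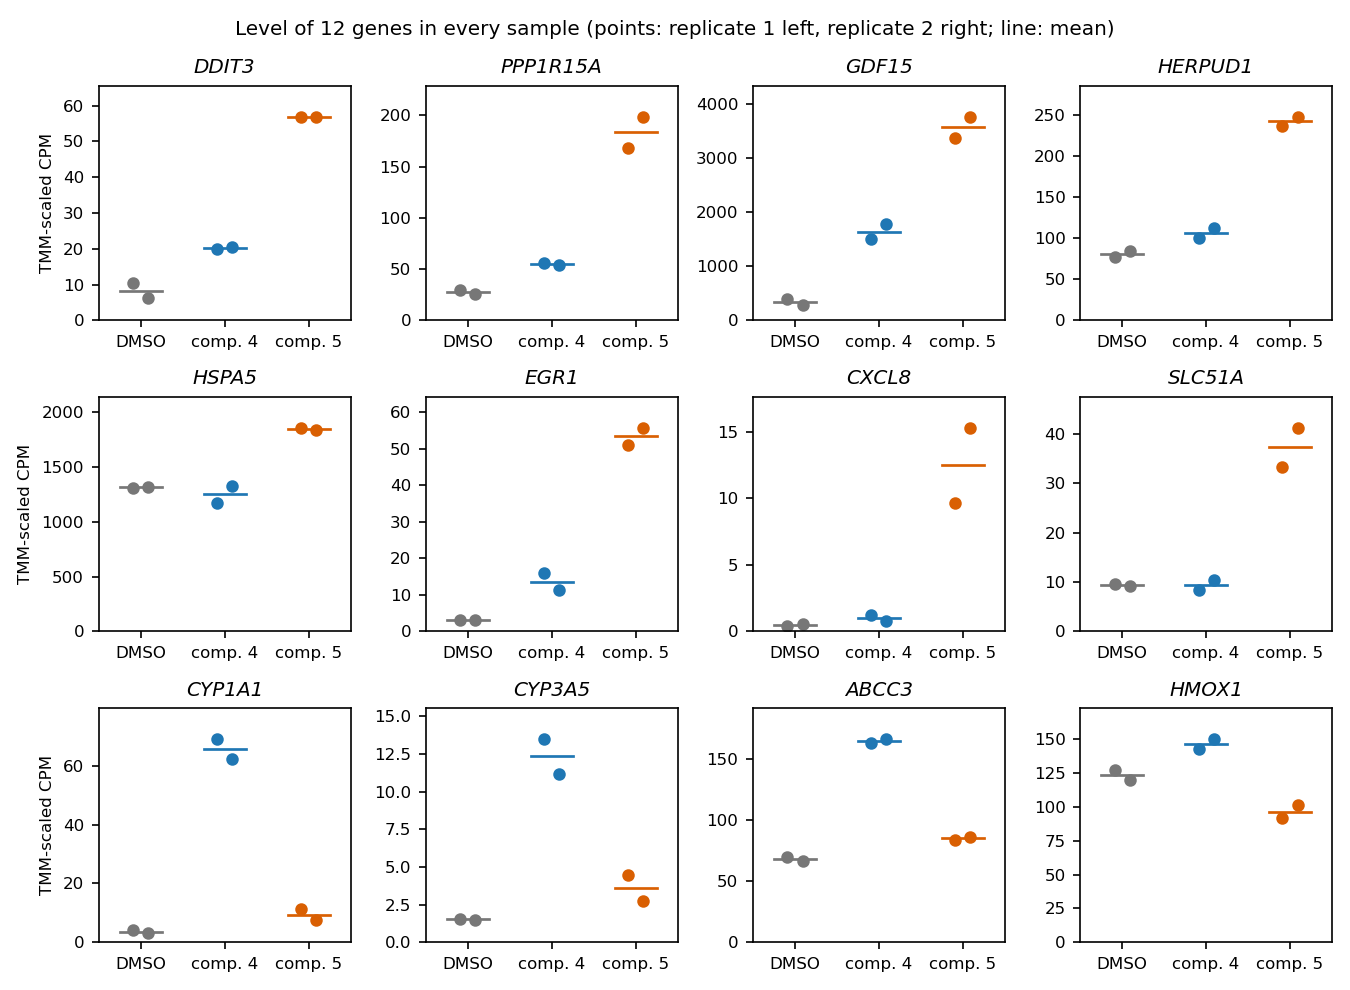
TMM-scaled CPM of 12 genes in the 2 samples each of DMSO, compound 4, and compound 5 (points, with the mean as a line, linear axes from 0). From DDIT3 to SLC51A the compound 5 samples lie above both other groups, whereas CYP1A1, CYP3A5, and ABCC3 are highest with compound 4 and HMOX1 is lowest with compound 5.

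The integrated stress response is the program by which kinases that sense misfolded protein, amino acid shortage, or other insults phosphorylate the initiation factor eIF2, slow general translation, and favour translation of ATF4. ATF4 then switches on genes of amino acid synthesis, uptake, and tRNA charging, as well as DDIT3 (also called CHOP), which is tied to cell death. The unfolded protein response of the endoplasmic reticulum (ER) shares the kinase EIF2AK3 with it and adds the sensors ERN1 and ATF6, which raise ER chaperones. In hepatocytes, which secrete large amounts of protein, both programs are prominent in drug toxicity.

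Most genes of the integrated stress response were higher with compound 5. Of 30 tested members, 18 were called higher (60.0%) and 1 lower, with a median log2 difference of 0.74 against -0.03 over all genes. Against DMSO, the median was 0.51 with compound 4 and 1.28 with compound 5. DDIT3 (chromosome 12, 57516588 to 57521737) stood at 19.9 and 20.4 CPM with compound 4 and at 56.7 and 56.9 with compound 5, a log2 difference of 1.49 (SE 0.24, adjusted p = 0.00676), with 10.3 and 6.25 CPM under DMSO. PPP1R15A, the phosphatase subunit that reverses eIF2 phosphorylation, had the largest difference of the list, from 56.4 and 53.6 CPM to 168 and 199 CPM (log2 1.74, SE 0.26, adjusted p = 0.00555). Both replicates of each compound were close together in these genes, and the groups were well apart.

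GDF15, a secreted stress hormone, had 1499 and 1779 CPM with compound 4 and 3368 and 3763 with compound 5 (log2 1.12, SE 0.26, adjusted p = 0.0232), against 392 and 294 under DMSO. TRIB3, a pseudokinase that restrains ATF4, and SESN2, a leucine sensor, had log2 differences of 1.17 (SE 0.19) and 1.23 (SE 0.18). Of the enzymes, CTH and CBS of cysteine synthesis (1.07 and 0.40), MTHFD2 of one-carbon metabolism (0.92), ASNS of asparagine synthesis (0.76), and PHGDH of serine synthesis (0.61) were called. ATF4 itself had 505 and 574 CPM against 697 and 762 (log2 0.44, SE 0.12, adjusted p = 0.0407). That call was lost with upper-quartile scaling (adjusted p = 0.0667) and without compound 4 replicate 1 or 2 (0.0946 and 0.0541). ATF3, a further transcription factor of the program, had a difference of 1.28 and was lost without compound 4 replicate 2 (0.0548). NUPR1, a small stress-induced chromatin protein, was the member called lower, with 20.9 and 18.6 against 12.3 and 12.6 CPM (-0.66), both above DMSO, and it was lost without compound 4 replicate 1 or 2 (0.0563 and 0.0568). The list held 21 members called higher under the length and GC correction, 12 without compound 4 replicate 2, and 5 without either compound 5 sample, and its median was between 0.73 and 0.76 in these fits.

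Amino acid transporters moved with them. Of 16 tested, 9 were called higher and 0 lower, with a median of 0.44. SLC3A2, the heavy chain shared by several exchangers (chromosome 11, 62856102 to 62888875), rose from 472 and 543 to 1152 and 1257 CPM (log2 1.25, SE 0.17, adjusted p = 0.00489). Its light chain for cystine import, SLC7A11, had a difference of 1.21 (SE 0.23), and the light chain for leucine import, SLC7A5, 0.38 (SE 0.11, adjusted p = 0.0475). SLC7A5 was not called with the replicate block (adjusted p = 0.0588), with upper-quartile scaling (0.0844), or without compound 4 replicate 1 or 2 (0.0627 and 0.125). SLC38A2 and SLC1A5, which import glutamine and other neutral amino acids, differed by 0.63 and 0.53. Leaving out compound 4 replicate 2 left 5 calls, and without replicate 1 or 2 of compound 5, 1 and 4, while 9 were called with the length and GC correction (median 0.35).

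Of the 20 cytosolic aminoacyl-tRNA synthetases, which charge tRNAs with amino acids, 8 were called higher and 0 lower, with a median of 0.23. GARS1, the glycine enzyme, had 330.2 and 298 CPM with compound 4 and 532 and 520.4 with compound 5 (log2 0.75, SE 0.11, adjusted p = 0.00543). TARS1, CARS1, SARS1, IARS1, EPRS1, MARS1, and YARS1 had differences between 0.36 and 0.63. Without compound 4 replicate 2, 3 members were called at a median of 0.22, and without replicate 1 or 2 of compound 5, 0 and 1 members at medians of 0.24 and 0.27. With the length and GC correction 9 were called (median 0.24).

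**Figure D3:**
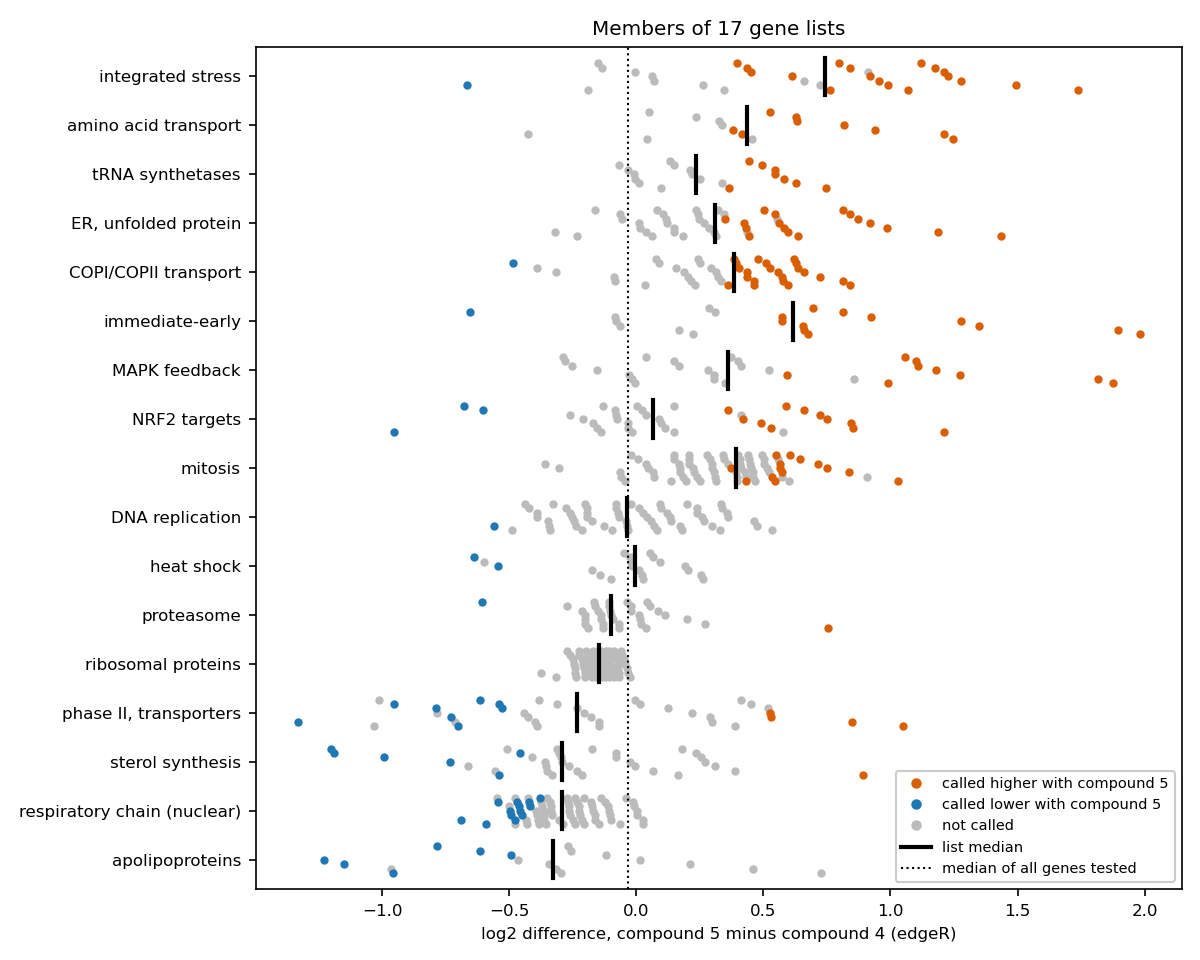
Log2 difference between compound 5 and compound 4 (edgeR, horizontal axis) for each tested member of 17 gene lists, coloured by its call, with the list median as a bar and the median of all 13404 genes as a dotted line. Among these 17 of the 35 lists, which leave out LXR, the integrated stress list has the highest median, 0.74, and the apolipoprotein list the lowest, -0.33.

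Part of the ER genes were higher with compound 5 as well. Of 44 tested members of the list of ER chaperones, folding and degradation factors, and stress sensors, 17 were called higher (38.6%) and 0 lower, with a median of 0.31. The largest difference was that of ERN1, the sensor that splices XBP1 mRNA (chromosome 17, 64039142 to 64130819), with 33.2 and 27.5 CPM against 83.2 and 80.8 (log2 1.44, SE 0.20, adjusted p = 0.00513). HERPUD1, a membrane protein of ER-associated degradation (chromosome 16, 56932048 to 56944863), had 100.5 and 112 CPM with compound 4, 236 and 248 with compound 5, and 76.5 and 84.5 under DMSO (log2 1.19, SE 0.12, adjusted p = 0.00211). The sensor kinase EIF2AK3 (0.92) and the ER chaperones DNAJB9 (0.98) and HSPA13 (0.87) were called as well.

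The abundant chaperones differed less. HSPA5, the central ER chaperone also called BiP (chromosome 9, 125234853 to 125241330), had 1175 and 1329 CPM with compound 4 and 1860.0 and 1839 with compound 5 (log2 0.56, SE 0.10, adjusted p = 0.0104), whereas the DMSO samples, at 1311 and 1322, lay with compound 4. The groups of the compounds did not overlap, as in every called gene. HSP90B1 had 0.35 (adjusted p = 0.0418) and was not called with the replicate block (0.0538), with upper-quartile scaling (0.0897), or without compound 4 replicate 1 or 2 (0.0936 and 0.0628). XBP1, the transcription factor that ERN1 activates by splicing, did not pass the test: its gene count was 256 and 332 CPM against 266 and 339 (log2 0.04, 95% interval -0.30 to 0.37), and the spliced form is not resolved by gene counts. The list had 20 calls upward and 1 downward under the length and GC correction, 13 upward without compound 4 replicate 2, and 4 and 6 without replicate 1 or 2 of compound 5.

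The promoters of 3 of these genes are shown because they hold the elements through which these programs are known to act. Sequences are the 200 bases before the RefSeq start site on GRCh38.p14, 5′ to 3′ on the gene's strand, and capitals mark each match, on either strand, to the ER stress element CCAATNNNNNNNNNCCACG (HSPA5 at chr9:125241344-125241543, minus strand, and HSP90B1 at chr12:103930210-103930409, plus strand) or to the core of the amino acid response element, TGATGNAA (ASNS at chr7:97872409-97872608, minus strand).
HSPA5: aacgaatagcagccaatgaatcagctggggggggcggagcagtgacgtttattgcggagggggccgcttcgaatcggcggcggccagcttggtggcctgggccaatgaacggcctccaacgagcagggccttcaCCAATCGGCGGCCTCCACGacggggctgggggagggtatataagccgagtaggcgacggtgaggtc
HSP90B1: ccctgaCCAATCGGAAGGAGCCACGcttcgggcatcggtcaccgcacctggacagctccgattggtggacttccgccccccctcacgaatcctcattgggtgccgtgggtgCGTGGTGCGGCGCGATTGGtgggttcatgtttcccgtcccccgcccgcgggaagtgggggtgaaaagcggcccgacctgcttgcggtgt
ASNS: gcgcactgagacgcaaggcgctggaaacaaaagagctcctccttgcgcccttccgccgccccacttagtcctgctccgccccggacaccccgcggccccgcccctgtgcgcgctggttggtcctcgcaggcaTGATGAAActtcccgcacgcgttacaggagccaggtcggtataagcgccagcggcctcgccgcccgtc
The ER stress element was found in 0.0769% of all 35116 promoter windows (250 bases before to 50 after the start), in 15 of 10021 windows of tested genes, in 6 of 761 windows of genes called higher (0.788%), and in 0 of 712 of genes called lower. Of 40 windows in the ER list, 8 held it (20%), namely those of CALR, CANX, CRELD2, ERO1B, HSP90B1, HSPA5, PDIA6, and XBP1. Of the 16 windows of ER members called higher, 3 held it (18.8%, CANX, HSP90B1, and HSPA5), a share like that of the whole list. The amino acid response core was found in 2.63% of windows of tested genes, 4.60% of those called higher, and 1.12% of those called lower. It was present in 7 of 16 tRNA synthetase windows, 5 of 13 amino acid transporter windows, and 4 of 24 integrated stress windows. With the same search, GCGTG, the core of the aryl hydrocarbon receptor element, was found in 58.4% of windows of tested genes. It was in 62.5% of those called higher and 51.7% of those called lower. TGCNCNC, the core of the metal response element, was in 70%, 69.0%, and 70.8% in the same order. A match describes the letters of the window and not binding.

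Coat proteins of the vesicles that move cargo between the ER and the Golgi (COPII outward, COPI back) were in the majority higher with compound 5. Of 41 tested members, 22 were called higher with compound 5 (53.7%) and 1 lower, with a median of 0.39, and 33 had both compound 5 samples above both compound 4 samples, as did 28.3% of all genes tested. SEC24D, a cargo-binding subunit of COPII, had 127 and 103 CPM with compound 4 and 204 and 208 with compound 5 (log2 0.84, SE 0.12, adjusted p = 0.00535). Its relative SEC24A (0.66), the COPII scaffold SEC16A (0.81), and GBF1, the exchange factor that recruits COPI (0.72), were called too. Against DMSO the list median was 0.10 with compound 4 and 0.46 with compound 5. Under the length and GC correction the median was 0.39 and 26 members were called higher. It held 11 calls without compound 4 replicate 2, and without replicate 1 or 2 of compound 5 it held 2 and 1, at medians of 0.39, 0.38, and 0.40. TRAPPC1, a tethering subunit, was the member called lower (-0.49), and it was lost under the correction (adjusted p = 0.301), with DESeq2 (0.0568), and without compound 4 replicate 2 (0.132).

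Other branches of protein quality control had list medians of -0.004 (heat shock), -0.10 (proteasome), and 0.10 (autophagy and lysosomes). Of 20 heat shock genes, 0 were called higher and 2 lower, HSPB1 (-0.54) and HSPA1B (-0.64), and both calls were lost without compound 4 replicate 2 (adjusted p = 0.0711 and 0.136) and under the length and GC correction (0.0996 and 0.0529), where 2 other members were called higher. HSPA1A had -0.60 (adjusted p = 0.0777) and passed with the replicate block (0.0181). HSPA1A and HSPA1B share 73.6% and 74.4% of their 31-base words with other genes, chiefly each other, so their split is uncertain. HSPH1 and DNAJB1, typical targets of the heat shock factor, differed by 0.01 (95% interval -0.31 to 0.33) and -0.05 (-0.31 to 0.21). Of 35 proteasome genes, PSME4, an activator cap (0.75), was called higher, and NFE2L1, the transcription factor that restores proteasome subunits (-0.61), was called lower. Of 61 genes of autophagy and lysosomes, 7 were called higher (11.5%) and 2 lower (3.28%), against 6.91% and 7.04% of all genes tested. ULK1, the kinase that starts autophagosome formation, rose from 32.8 and 28.6 to 61.5 and 61.8 CPM (log2 1.01, SE 0.13, adjusted p = 0.00455). ATG10 (-1.35) and the lysosomal protease CTSB (-0.60) were lower. GABARAPL1 (0.65) and MAP1LC3B (0.51), which coat autophagosomes, lost their calls without compound 4 replicate 2 (0.0883 and 0.0502), when 3 members were called higher, and 1 was called without either compound 5 sample. The length and GC correction gave 11 calls upward and 4 downward. SQSTM1, the cargo receptor, was at 1121 and 1193 against 1495 and 1467 CPM (log2 0.36, 95% interval -0.01 to 0.73), with both compounds above DMSO (337 and 310.3).

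The antioxidant program of NRF2 split. NRF2, the product of NFE2L2, is a transcription factor that induces glutathione synthesis, thioredoxin, and detoxification genes. Of 36 tested members, 11 were called higher with compound 5 (30.6%) and 3 lower (8.33%), while the median was 0.06. The glutathione synthesis genes GCLC (251 and 225 against 418 and 434 CPM, log2 0.84, SE 0.12, adjusted p = 0.00543) and GCLM (0.75), and NFE2L2 itself (0.49) were higher. TXNRD1, thioredoxin reductase (0.72), and SRXN1, sulfiredoxin (0.59, with 84.9% of its 31-base words in other genes), were called with all samples and missed the threshold without compound 4 replicate 2 (0.0502 and 0.0547). HMOX1, which breaks down haem, was lower, at 143 and 150.1 CPM with compound 4 and 91.6 and 101 with compound 5 (log2 -0.60, SE 0.10, adjusted p = 0.008), and the DMSO samples, at 127 and 119.5, lay between them. The exporter ABCC3 had -0.95 and the biliverdin reductase BLVRB -0.68, the latter lost without compound 4 replicate 2 (0.0651) and under the length and GC correction (0.0554). NQO1, a quinone reductase, differed by -0.08 (95% interval -0.31 to 0.16). The list had 13 calls upward and 2 downward under the length and GC correction, at a median of 0.21, 8 without compound 4 replicate 2, and 2 and 3 without replicate 1 or 2 of compound 5.

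Metallothioneins, small proteins that bind zinc and copper, did not pass the test between the compounds in this fit. MT2A had 233 and 296 CPM with compound 4 and 253 and 294 with compound 5 (log2 0.05, 95% interval -0.48 to 0.58), against 40.1 and 43.9 under DMSO. MT1E (-0.02, -0.64 to 0.61) and MT1G (0.18, -0.34 to 0.70) were alike in this respect, and these intervals are wide. MT1G passed under the length and GC correction (0.57, adjusted p = 0.00812). MT1X had 0.53 (adjusted p = 0.0589) and passed with the replicate block (0.0417), under the length and GC correction (0.00918), and without compound 4 replicate 2 (0.0383). Of the zinc transporters in this list of 25, SLC30A7, SLC39A9, and SLC30A1 were called higher (0.63, 0.50, and 0.41) and SLC39A4 lower (-0.48), and all 4 calls were lost without compound 4 replicate 2, at adjusted p-values between 0.0557 and 0.142.

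Immediate early genes, transcription factors that respond within minutes to growth factors and stress, were mostly higher with compound 5. Of 20 tested, 12 were called higher (60.0%) and 1 lower, with a median of 0.62, and the medians against DMSO were 0.46 with compound 4 and 0.99 with compound 5. EGR1, a zinc finger factor (chromosome 5, 138465490 to 138469315), had 15.9 and 11.2 CPM with compound 4, 51.0 and 55.8 with compound 5, and 3.05 and 3.12 under DMSO (log2 1.98, SE 0.29, adjusted p = 0.00543). The AP-1 subunits FOSB (1.90), FOS (1.35), FOSL1 (0.92), and JUN (0.81) were called. CCN2, a matricellular growth factor, was the member called lower (-0.65). Without compound 4 replicate 2, FOSL1 (adjusted p = 0.0542), KLF6 (0.0703), NR4A1 (0.208), and CCN2 (0.0883) were lost and 7 members were called higher. Without replicate 1 or 2 of compound 5, 4 and 2 were called, and with the length and GC correction 12 were higher and 1 lower (median 0.71).

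Genes induced by MAP kinase signalling, many of which feed back on it, had 9 members of 28 called higher and 0 lower, with a median of 0.36. DUSP5, a phosphatase of ERK in the nucleus, was at 10.1 and 8.27 CPM with compound 4, 33.9 and 33.4 with compound 5, and 1.77 and 1.23 under DMSO (log2 1.88, SE 0.36, adjusted p = 0.0112). Its cytoplasmic relative DUSP6 had 232 and 242 against 241 and 230 CPM (log2 -0.01, 95% interval -0.25 to 0.24), both compounds above DMSO at 133 and 125. DUSP4 (-0.02, -0.69 to 0.65) and SPRY2 (0.15, -0.24 to 0.53) did not pass either. The EGF receptor ligands AREG (1.82) and EREG (1.27), the ephrin receptor EPHA2 (1.18), and IER3 (1.11) were called, and AREG and EREG were lost without compound 4 replicate 2 (adjusted p = 0.0542 and 0.0502). In that fit 7 members were called, and 4 and 3 were without replicate 1 or 2 of compound 5, whereas the length and GC correction gave 12 (median 0.30).

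Of 29 cytokine and NF-κB genes, 5 were called higher and 0 lower, with a median of 0.04, and with the length and GC correction 6 were higher and 1 lower at a median of 0.19. After CXCL8, the chemokine CCL20 had the largest difference among the called members, from 347 and 389 to 752 and 701 CPM (log2 0.98, SE 0.14, adjusted p = 0.00555). The feedback inhibitors TNFAIP3 (-0.15, 95% interval -0.47 to 0.18) and NFKBIA (-0.20, -0.48 to 0.08) did not pass. TNFRSF10B (0.59), ICAM1 (0.44), and NFKB1 (0.41) were lost without compound 4 replicate 2 (adjusted p = 0.0735, 0.0728, and 0.0919), which left 2 calls.

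**Figure D4:**
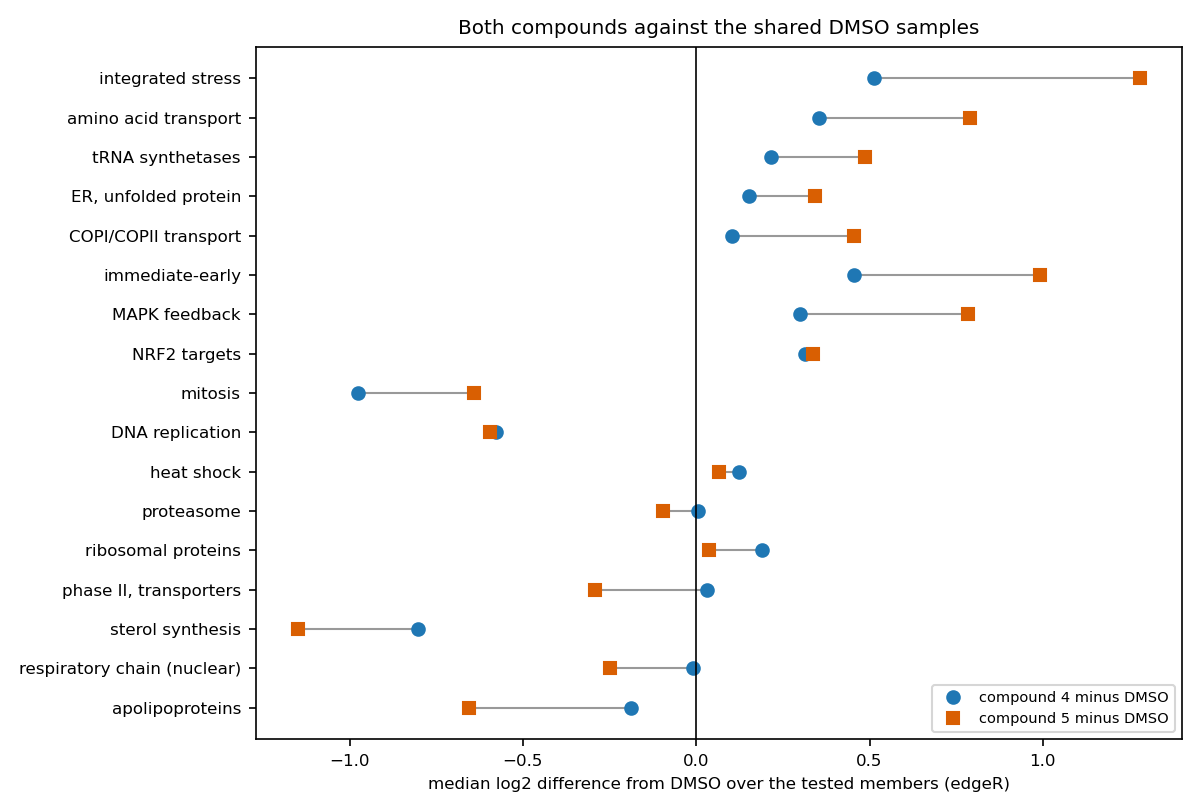
Median log2 difference from the shared DMSO samples over the tested members of 17 gene lists, for compound 4 (circles) and compound 5 (squares). The compounds share their controls, so the 2 positions are not independent, and the distance between them is largest for the integrated stress list (0.51 and 1.28).

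Xenobiotic metabolism differed by gene. Besides CYP1A1, CYP3A5, a relative of CYP3A4 with overlapping substrates (chromosome 7, 99648194 to 99680026), was lower with compound 5, at 13.5 and 11.2 CPM against 4.49 and 2.75, with 1.57 and 1.48 under DMSO (log2 -1.78, SE 0.25, adjusted p = 0.00542). CYP3A4 thus lay on the other side, and CYP2B6, a further target of the nuclear receptors PXR and CAR, differed by 0.37 (95% interval -0.20 to 0.93). The receptor genes NR1I2 (-0.14, -0.41 to 0.13) and TIPARP, a feedback target of the aryl hydrocarbon receptor (0.09, -0.27 to 0.44), did not pass. Of 9 tested aryl hydrocarbon receptor genes, 2 were called higher and 1 lower, the former being NFE2L2 and SLC7A5, which belong to other lists as well. The receptor gene AHR had 0.36 (95% interval 0.12 to 0.61, adjusted p = 0.0527) and passed with DESeq2 (0.0133) and with RLE scaling (0.0435). Both compound 5 samples lay above both compound 4 samples, as in 28.3% of all genes tested. The list had 4 calls upward with RLE scaling, 3 without compound 4 replicate 1, 1 with the replicate block, with upper-quartile scaling, or without compound 4 replicate 2 or either DMSO sample, and 0 without either compound 5 sample. Of 14 PXR and CAR genes 2 were called in each direction, the others being ABCB1, the drug exporter (0.53), and the esterase CES2 (-0.33). CES2 was not called with the replicate block (adjusted p = 0.0556) or with DESeq2 (0.0776), and both were lost without compound 4 replicate 2 (0.142 and 0.153).

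Of 37 conjugation enzymes and transporters, 4 were called higher and 8 lower (21.6%), with a median of -0.23. ABCC3, which exports conjugates into blood (chromosome 17, 50634777 to 50692252), had 163 and 167 CPM with compound 4 and 83.9 and 86.5 with compound 5, against 70.3 and 67.1 under DMSO. The glutathione transferase GSTA4 (-1.33), the uptake carrier SLCO2B1 (-0.79), and the sulfotransferase SULT1A1 (-0.73) were also lower. UGT2B4, a glucuronosyltransferase (0.85), was higher, as was SLCO1B3, a hepatic uptake carrier (1.05), of which 53.4% of the 31-base words occur in other genes. Among 16 bile acid genes, beside both chains of OST, BAAT (-0.39) and HSD3B7 (-0.87) of bile acid synthesis were lower. The receptor gene NR1H4 had 0.50 (adjusted p = 0.059) and its target NR0B2 0.22 (95% interval -0.06 to 0.50), and both passed under the length and GC correction (0.0424 and 0.0151). The conjugation list had 2 calls upward and 5 downward without compound 4 replicate 2, and BAAT was then lost (0.0533).

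Sterol synthesis is governed by SREBP2, a transcription factor that raises the enzymes of the pathway. Of the 35 tested members, 24 were called lower than DMSO with compound 4 and 26 with compound 5, at list medians of -0.80 and -1.15. Over all genes tested, the shares called lower than DMSO were 5.42% and 14.2%. The direct comparison separated the compounds in part: 1 was called higher and 6 lower (17.1%), with a median of -0.29. HMGCS1, at 44.5 and 50.2 against 46.7 and 47.6 CPM (DMSO 149 and 148), differed by -0.01 (95% interval -0.29 to 0.28). SQLE, an epoxidase of the pathway (-0.02, -0.33 to 0.29), did not pass either. The enzymes PMVK (-1.20), TM7SF2 (-0.99), and FDFT1 (-0.73) and the ubiquitin ligase MYLIP (-1.19) were lower. FDFT1 and MYLIP were lost without compound 4 replicate 2 (adjusted p = 0.141 and 0.072), which left 2 calls downward, and without replicate 1 or 2 of compound 5 there were 1 and 0. With the length and GC correction there were 8 (median -0.23).

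Of 13 genes of the oxysterol receptor LXR, 3 were called lower and 0 higher, APOC1 (-0.62), MYLIP, and the receptor gene NR1H3 (-0.63), at a median of -0.46. All 3 were lost without compound 4 replicate 2, at adjusted p-values of 0.0741, 0.072, and 0.0628, and the median was then -0.30. With the length and GC correction 2 members were higher and 3 lower, at a median of -0.28. The sterol exporter ABCA1 differed by 0.11 (95% interval -0.34 to 0.57). In fatty acid and lipid droplet metabolism, 6 of 26 members were called higher and 2 lower, which became 4 and 4 with the length and GC correction and 2 and 1 without compound 4 replicate 2. ACSL5, which activates fatty acids, had 172 and 155 against 341 and 292 CPM (log2 0.96, SE 0.13, adjusted p = 0.00489), PLIN2, which coats lipid droplets, had 0.45, and the triglyceride synthase DGAT2 was lower, at 31.9 and 37.0 against 13.8 and 20.4 CPM (adjusted p = 0.00857). FASN, fatty acid synthase, differed by 0.04 (-0.18 to 0.26). SCD, the desaturase, had -0.49 (adjusted p = 0.0628) and passed with the replicate block (0.0473), with DESeq2 (0.0253), and under the length and GC correction (0.026), whereas ACSS2 (-0.63) was called without the block and not with it (0.0521). Among 25 PPARα genes, 3 were called in each direction, the lower ones being the oxidation enzymes ACADS (-0.75), CPT2 (-0.50), and ACADM (-0.49), all lost without compound 4 replicate 2 (0.0541, 0.0916, and 0.0998). With the length and GC correction 3 of these genes were higher and 5 lower. CPT1A, the gate of mitochondrial oxidation, differed by -0.10 (-0.36 to 0.16).

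Of 36 hypoxia and glycolysis genes, 3 were called higher and 6 lower, with 2 and 6 under the length and GC correction and 1 and 2 without compound 4 replicate 2. The liver pyruvate kinase PKLR (-1.01), the HIF hydroxylase EGLN3 (-0.86), and the carbonic anhydrase CA9 (-0.82) were lower, while VEGFA (0.66), HIF1A (0.46), and HK2 (0.46) were higher, so that typical targets of the hypoxia factor lay on both sides. CA9, HIF1A, and HK2 lost their calls without compound 4 replicate 2 (adjusted p = 0.0715, 0.153, and 0.133), and VEGFA without replicate 1 (0.0526) and under the length and GC correction (0.108).

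Secreted liver proteins had 8 of 50 members called higher and 5 lower, with a median of -0.06. These counts were 5 and 9 without compound 4 replicate 1, 7 and 2 without its replicate 2, and 4 and 0 or 2 and 1 without replicate 1 or 2 of compound 5. Fibrinogen, the precursor of fibrin in clots, was higher in its alpha and gamma chains. FGG had 469 and 668 CPM with compound 4, 928 and 1152 with compound 5, and 941 and 909 under DMSO (log2 0.87, SE 0.17, adjusted p = 0.0128), and FGA had 0.79. ITIH3, a hyaluronan-binding protein, rose from 133 and 144 to 271 and 292 CPM (log2 1.03, SE 0.11, adjusted p = 0.00211). In the other direction, the complement chain C8G (-1.25) and the plasmin inhibitor SERPINF2 (-0.74) were called. TTR, the thyroxine carrier, had -0.81 and was lost without compound 4 replicate 2 (0.0702). Albumin itself (ALB) differed by -0.07 (95% interval -0.37 to 0.23) and alpha-fetoprotein (AFP) by -0.05 (-0.32 to 0.22).

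Apolipoproteins, which build the lipoproteins that the liver secretes, had 0 of 18 members called higher and 6 lower (33.3%), with a median of -0.33. ANGPTL8, which restrains lipoprotein lipase (chromosome 19, 11237450 to 11241943), was at 35.8 and 51.2 CPM with compound 4 and 17.4 and 21.8 with compound 5, against 33.3 and 30.3 under DMSO (log2 -1.15, SE 0.21, adjusted p = 0.00948). APOF (-1.23), APOA5 (-0.96), APOM (-0.78), and APOC1 (-0.62) were called too. Under the length and GC correction 6 members were lower and 2 higher at a median of -0.16, and without compound 4 replicate 2, 2 were lower. APOF (0.0568), APOA5 (0.0945), and APOC1 were lost in the latter fit, and 0 and 1 calls were left without replicate 1 or 2 of compound 5. APOB, at 6521 and 2889 against 8630.0 and 6920.0 CPM, was not called with all samples (log2 0.72, adjusted p = 0.116), and without compound 4 replicate 1 it was (1.43, 0.00229). Of 19 liver transcription factors only CEBPA was called (-0.57), and it was lost without compound 4 replicate 2 (0.185), while HNF4A (-0.25, 95% interval -0.47 to -0.02) and FOXA2 (0.20, -0.07 to 0.46) were not. Under the length and GC correction HNF4A (-0.34) and FOXA2 (0.36) passed (0.0169 and 0.0307) and CEBPA did not (0.0551).

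Some genes of mitosis were higher with compound 5 than with compound 4. Of 75 tested, 14 were called higher (18.7%) and 0 lower, the median was 0.39, and 69 differences were positive. Both compounds lay below DMSO, with medians of -0.98 and -0.64, and 70 and 57 members were called lower than DMSO with compounds 4 and 5, against 5.42% and 14.2% of all genes (6.50% and 13.9% were called higher). In bulk RNA, fewer cells in mitosis and less RNA per such cell cannot be told apart. TOP2A, the topoisomerase of dividing cells (chromosome 17, 40388516 to 40417950), had 183 and 179.9 CPM with compound 4, 293 and 316 with compound 5, and 469 and 536 under DMSO (log2 0.75, SE 0.14, adjusted p = 0.0112). The kinetochore genes CENPE (1.03), CENPF (0.84), and TTK (0.71) and the transcription factor FOXM1 (0.64) were called. MKI67, the proliferation marker, had 127 and 61.9 against 193 and 160.3 CPM (log2 0.91, adjusted p = 0.0556), and passed without compound 4 replicate 1 (1.51, 0.00254) and under the length and GC correction (0.69, 0.0496). The kinases PLK1 (0.41, adjusted p = 0.0575) and AURKB (0.51, 0.0586) did not pass either. Both passed with DESeq2 (0.0212 and 0.0344) and under the length and GC correction (0.0415 and 0.00446). Their compound 5 samples lay above both compound 4 samples, as in 55 of the 75 members and 28.3% of all genes tested. Other regulators of mitosis differed less: CCNB1 differed by 0.19 (95% interval -0.13 to 0.50), CDK1 by 0.17 (-0.19 to 0.53), and AURKA by 0.19 (-0.10 to 0.49). Under the length and GC correction the median was 0.36 and 26 members were called. Without compound 4 replicate 2 it was 0.39 with 5 called, and CENPF (0.0717) and FOXM1 (0.104) were lost. Without replicate 1 or 2 of compound 5 there were 0 calls in edgeR, at medians of 0.45 and 0.29, and without compound 4 replicate 1 there were 23.

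DNA replication genes did not follow. Of 58 tested, 0 were called higher and 1 lower, with a median of -0.04, and both compounds lay below DMSO by -0.58 and -0.60. MCM2, a subunit of the replicative helicase, had 151 and 160.3 against 136 and 171 CPM (log2 -0.02, 95% interval -0.30 to 0.27), and MCM5 differed by -0.19 (-0.51 to 0.12). PCNA, the sliding clamp, was at 244 and 274 against 191 and 196 CPM, with the compound 5 samples lower (log2 -0.42, SE 0.18, adjusted p = 0.128). In the other direction, RRM2, a subunit of ribonucleotide reductase, had 0.46 (95% interval 0.13 to 0.79, adjusted p = 0.0609, and 0.015 with DESeq2), and the licensing factors CDT1 and CDC6 had 0.30 (0.01 to 0.58) and 0.24 (-0.11 to 0.59). The member called lower was RPA3 (-0.56), which was lost without compound 4 replicate 2 (0.242) and with DESeq2 (0.0564), which itself called 2 others higher. The cell cycle inhibitor CDKN1A had -0.40 (73.5 and 78.1 against 54.2 and 60.6 CPM), and FDXR, a mitochondrial reductase, -0.82, whereas MDM2, a ubiquitin ligase, differed by -0.01 (-0.23 to 0.21). CDKN1A was lost with DESeq2 (adjusted p = 0.0655), under the length and GC correction (0.0949), and without compound 4 replicate 2 (0.13) or either DMSO sample (0.0595 and 0.0692). BBC3, which promotes cell death, was called higher (0.64) and was lost without compound 4 replicate 1 or 2 (0.111 and 0.0568). TP53I3 (-0.69) was not called with the replicate block (0.0538), with DESeq2 (0.115), or without compound 4 replicate 2 (0.236).

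A minority of nuclear genes of the respiratory chain were called lower with compound 5, and the calls changed with the length and GC correction and with the library left out. Of 72 tested, 0 were called higher and 13 lower (18.1%), with a median of -0.29 and 68 negative differences. ATP5MC1, a subunit of the ATP synthase ring, had 92.2 and 114 against 64.4 and 63.7 CPM (log2 -0.69, SE 0.14, adjusted p = 0.0134). Under the length and GC correction the median was -0.13 with 7 calls downward and 1 upward. Without compound 4 replicate 2 it was -0.15 with 0 calls in edgeR, when ATP5MC1 had -0.52 (adjusted p = 0.0557), and without replicate 1 there were 36. With either compound 5 sample left out there were 0 calls, at medians of -0.27 and -0.31. Of the 13 protein genes of the mitochondrial genome, MT-CYB, a subunit of complex III, was called higher, at 1576 and 1414 CPM with compound 4, 2897 and 2335 with compound 5, and 1458 and 1537 under DMSO (log2 0.81, SE 0.12, adjusted p = 0.00555), while the list median was -0.01. The length and GC correction gave 2 calls upward at a median of 0.25, and 0 members were called without compound 5 replicate 1. All 79 ribosomal protein genes had negative differences, at a median of -0.15, and 0 were called in edgeR with TMM scaling or in DESeq2, with 1 called lower under upper-quartile or library-size scaling and 12 without compound 4 replicate 1. With the length and GC correction that median was 0.02.

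**Figure D5:**
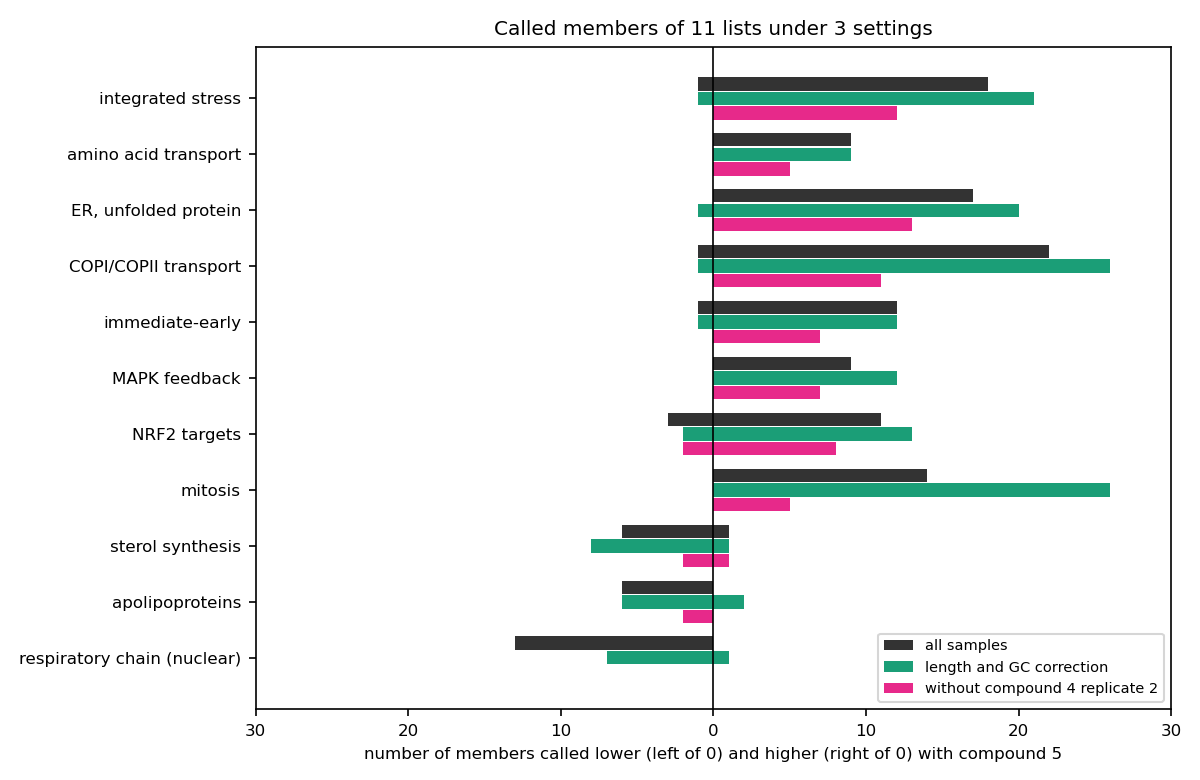
Number of members called lower (left) and higher (right) with compound 5 in 11 lists, with all samples, with the length and GC correction, and without compound 4 replicate 2. The respiratory chain goes from 13 to 7 to 0 calls downward, whereas the integrated stress list has 18, 21, and 12 upward.

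In the remaining lists few members were called. Of 36 matrix and adhesion genes, the integrin ITGA2 (0.85) was higher and S100A6 (-0.74), TIMP1 (-0.67), and CCN2 lower. Of these, S100A6 and TIMP1 were lost under the length and GC correction (adjusted p = 0.166 and 0.13) and ITGA2 without compound 4 replicate 2 (0.116). Of 17 long noncoding RNAs, TP53TG1 and LINC-PINT (both -0.95) were called lower, and both calls were lost with DESeq2 (0.126 and 0.0723) and without compound 4 replicate 2 (0.167 and 0.0799), and UCA1, at 12.1 and 7.10 against 12.8 and 7.07 CPM with 0.689 and 0.329 under DMSO, differed by 0.05 (-0.73 to 0.83). Of 18 iron and ferroptosis genes, the transferrin receptor TFRC (0.55), SLC3A2, and ACSL4 (0.37) were higher and ID2 (-0.68) lower, and ACSL4 was lost without compound 4 replicate 1 or 2 (0.0683 and 0.0629). Of 18 interferon genes, OAS1 was called lower (-0.39), and that call was lost with DESeq2 (adjusted p = 0.0563), under the length and GC correction (0.0716), and without any 1 of the DMSO, compound 4, or compound 5 samples (0.0617 to 0.184).

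Called in opposite directions against DMSO were 4 genes with compound 4 above and compound 5 below, and 0 genes the other way round. SCNN1A, the alpha chain of the epithelial sodium channel, had 29.9 and 24.7 CPM with compound 4, 18.0 and 12.5 under DMSO, and 9.07 and 7.69 with compound 5 (log2 -1.71 between the compounds, SE 0.20, adjusted p = 0.00344). SRCIN1, an inhibitor of SRC kinase, had 28.8 and 21.8, 12.7 and 13.8, and 8.89 and 6.44 CPM in the same order (-1.73, SE 0.21). The dehydrogenase DHRS1 (-0.91) and SPATA20 (-0.83) were the other members. In all 4 genes the 3 groups did not overlap, and between the compounds this held for every called gene.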

How the data were processed

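RNA-seq was read as estimated counts per gene that the authors deposited for 8 samples, DMSO and compounds 4, 5, and 6 with 2 each. Per the labels and methods, reads were checked with FastQC 0.12.0, quantified with Salmon 1.5.0 against GRCh38 transcripts, summed to genes, and tested by the authors with DESeq2 1.38.3. Quantified reads are assigned in part where transcripts share sequence, so near-identical genes are uncertain. Replicate 1 of each of compounds 4 and 5 was merged from 2 sequencing indices, by its column name.

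The estimated counts were deposited as whole numbers and used as they stood, filtered with filterByExpr, scaled by TMM, and fitted across all 8 samples and 4 groups with edgeR 4.0.16 (quasi-likelihood test, limma 3.58.1, R 4.3.3), which shares 1 estimate of spread. P-values were adjusted by Benjamini-Hochberg over all 13404 genes with a threshold of 0.05. Log2 CPM used a prior count of 2. DESeq2 1.42.0 was an alternative, and the fit was tested on simulated data. Tables were made with Python 3.11.15 and pandas 2.3.3. The total of each library limits precision, intervals cover 95%, and floors of 3 counts cover counting error only.

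The labels give the replicates of every group a day, 1 or 2, so samples of the same number share a day and are paired by the labels. Deviations of same-numbered samples from their group means correlated between -0.083 and 0.16 (0.16 for compounds 4 and 5), so they hardly deviated together. The fit with the number as a replicate block is an alternative, and its value stands beside each named result whose call it changed.

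Members and lists were chosen with earlier results of these data known. Named genes are the 10 with the largest called differences in each direction (mean of at least 1 CPM, groups not overlapping), preset key genes of each list and up to 4 further called members in each direction, up to 5 genes in each direction that were called on opposite sides of DMSO, and CYP3A4. Promoter sequences came from RefSeq on GRCh38.p14, and coordinates from a GENCODE annotation of GRCh38 that covers 57972 of the 60230 genes. The correction for transcript length and GC content was a loess offset per library and was chosen after seeing the data. Some items are not reported here.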

Additional observations from a re-analysis of the deposited data

Results flagged for a closer look

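SRCIN1, SCNN1A, DHRS1, and SPATA20 were singled out because their differences from DMSO had opposite directions, higher with compound 4 and lower with compound 5, each past the threshold in edgeR, and because the direct test between the compounds passed as well. The log2 difference, compound 5 minus compound 4, was -1.73 for SRCIN1, -1.71 for SCNN1A, -0.914 for DHRS1, and -0.834 for SPATA20. The direction was the same on both days for all 4 genes, as it was for all 943 genes called lower, so it adds no support.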

How the results depend on the processing

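With all samples 1869 genes were called (926 higher, 943 lower with compound 5). Leaving out 1 sample gave between 111 and 2709 calls, with 71 to 1539 higher and 40 to 1170 lower, the fewest without compound 5 replicate 1. An arm left with 1 sample is assumed to vary like the other groups. Without a low-count filter 2812 genes were called (1630 higher), with the 4 compound samples alone 897 (504 higher, 393 lower), and at an adjusted p under 0.01 279 (147 and 132). Upper-quartile scaling gave 615 and library size alone 581 genes higher, and DESeq2 508 lower. The cause of these changes was not tested.

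The replicate block gave 1636 calls (813 higher, 823 lower). Among named genes it removed the calls of SLC7A5, HSP90B1, CES2, ACSS2, TP53I3, and ENSG00000278834, added those of HSPA1A (adjusted p = 0.0181), MT1X, and SCD, and changed no other named call. Of 178 called named genes, 87 lost their call without compound 4 replicate 2, 144 and 129 without compound 5 replicate 1 or 2, and 20 under the length and GC correction. That correction, with and without the block, was chosen after seeing the data, and gave 2187 and 2074 calls.

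Of 35 list medians, 14 changed sign in at least 1 alternative, all of them within 0.157 of 0 with all samples. Values follow for the 4 lists whose median with all samples was at least 0.05 in size, had the same sign on both days, and exceeded the SD between the days. The aryl hydrocarbon receptor list had -0.0432 with DESeq2 and -0.0501 without a filter, and the PXR and CAR list 0.0967 with at least 10 counts in every sample. Ribosomal protein genes had 0.0168 under the length and GC correction and 0.017 with the block added. The iron list, at -0.157 with all samples, had 0.0974 and 0.0943 in those fits and ranged from -0.202 to 0.0534 with 1 sample left out. With 2 samples in each group, differences smaller than those called may remain undetected.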
